A study of Mus musculus with 26 samples.

Results

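The myosin light chains are described here through 10 genes of the 55341 listed in the count tables, chosen by symbol: 6 that encode muscle isoforms (Myl1, Myl2, Myl3, Myl4, Mylpf and Myl6b) and 4 that encode non-muscle isoforms (Myl6, Myl9, Myl12a and Myl12b). Each myosin motor is built of heavy chains that carry an essential and a regulatory light chain at the neck. The essential chains (5 of the genes: Myl1, Myl3, Myl4, Myl6 and Myl6b) stiffen the lever arm. The regulatory chains (Myl2, Mylpf, Myl9, Myl12a and Myl12b, also 5) are the substrates of the myosin light chain kinases, and in non-muscle and smooth muscle cells their phosphorylation switches the motor on. A myoblast that withdraws from the cell cycle and fuses turns on the light chain isoforms of the sarcomere.

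The cells were C2C12, a mouse myoblast line that differentiates into myotubes when serum is withdrawn, sampled as myoblasts (0 h) and 24 h after the change to differentiation medium. In the knockdown experiment (18 libraries) cells received a control siRNA (siCtrl) or 1 of 2 siRNAs against the lysine methyltransferase SMYD3 (siSMYD3#1, siSMYD3#2), with 3 libraries in each of 6 groups, 2 extracted with NucleoSpin and 1 with TRIzol. In the overexpression experiment (8 libraries, all TRIzol) the clonal line SMYD3 CL5, which carries tagged SMYD3 in the retroviral vector pREV, was compared with cells carrying the empty vector (vector), with 2 libraries in each of 4 groups. By the study's methods, cells with the empty vector were sub-cloned as well. SMYD3 CL5 is 1 clone, so SMYD3 and any other property of that clone, or of the vector cells, cannot be told apart.

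Total counts ran from 14315193 to 60398170 per knockdown library and from 21124675 to 67853386 per overexpression library. The myoblast markers Myod1, Myf5, Des and Cdh15 were present in all 26 libraries, and the summed level of Myog, Mymk, Ckm and Acta1, markers of differentiating muscle, went from 2.82 to 5.34 CPM (counts scaled to a common library size, with TMM normalization factors) in siCtrl at 0 h to 251 to 861 CPM at 24 h. In vector cells the same sum was 2.23 to 4.11 CPM at 0 h and 23.7 to 27.8 CPM at 24 h. In SMYD3 CL5 it was 728 to 762 CPM at 24 h. Of 4 macrophage markers, Adgre1 had 0 counts in every library, Ptprc at most 6 and Csf1r at most 46, while Cd68 was present in all 26 (1.57 to 6.57 CPM). Of 4 adipocyte markers, Cfd had 0 counts in every library, Adipoq at most 3, Plin1 at most 6 and Fabp4 at most 64, and of 4 endothelial markers Pecam1 had at most 9, Cdh5 18, Tek 43 and Kdr 57. Smyd3 itself was lower under siSMYD3#2 (log2 fold change -1.51 ± 0.17 (SE) at 24 h, edgeR adjusted p = 5.06e-05). It was not called under siSMYD3#1 (-0.24 ± 0.16, edgeR adjusted p = 0.414) nor in SMYD3 CL5 (0.36 ± 0.27, adjusted p = 0.671). The study also measured Smyd3 by qPCR and western blot after siRNA. By its methods, the tagged protein was checked in the clones by western blot and immunofluorescence. How far these gene counts cover the tagged SMYD3 cDNA was not tested. The 2 SMYD3 CL5 libraries at 0 h stood apart from each other, with 65.3 and 398 CPM of the differentiating muscle markers. Extraction coincided with the cell passage in the knockdown experiment, so the 2 cannot be told apart. These are bulk libraries, in which a higher level per cell and more cells of a type cannot be told apart either.

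The start regions of 5 genes are shown: Mylpf, Myl1, Myl4 and Myl9, which were called higher at 24 h in siCtrl, and Myl6, which was not. Myl6b and Myl12b were also called higher and are not shown. Each region is the 250 bases upstream of the RefSeq start site (GRCm38.p6), read 5′ to 3′ on the strand of the gene. Capitals mark E-boxes (CANNTG, the letters bound by the MyoD family, searched on both strands) in Mylpf, Myl1 and Myl6, and a CArG box (the site of serum response factor, both strands) in Myl9. Mylpf lies on the plus strand at chr7:127211358-127211607, Myl1 on the minus strand at chr1:66945057-66945306, Myl4 on the plus strand at chr11:104550413-104550662, Myl9 on the plus strand at chr2:156775214-156775463 and Myl6 on the minus strand at chr10:128493887-128494136.
Mylpf: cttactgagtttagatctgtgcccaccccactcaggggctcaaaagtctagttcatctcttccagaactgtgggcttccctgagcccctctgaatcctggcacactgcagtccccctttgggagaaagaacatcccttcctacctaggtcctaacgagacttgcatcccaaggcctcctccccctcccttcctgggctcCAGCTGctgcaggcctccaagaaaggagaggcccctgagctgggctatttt
Myl1: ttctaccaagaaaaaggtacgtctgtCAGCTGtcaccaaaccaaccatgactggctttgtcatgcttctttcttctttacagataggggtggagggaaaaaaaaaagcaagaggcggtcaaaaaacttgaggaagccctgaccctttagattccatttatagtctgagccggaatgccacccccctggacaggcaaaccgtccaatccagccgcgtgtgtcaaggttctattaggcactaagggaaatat
Myl4: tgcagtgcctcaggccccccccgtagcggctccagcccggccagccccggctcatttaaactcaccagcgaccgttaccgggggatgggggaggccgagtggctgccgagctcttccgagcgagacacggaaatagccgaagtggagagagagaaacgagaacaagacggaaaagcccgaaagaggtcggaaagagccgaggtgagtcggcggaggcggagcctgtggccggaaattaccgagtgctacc
Myl9: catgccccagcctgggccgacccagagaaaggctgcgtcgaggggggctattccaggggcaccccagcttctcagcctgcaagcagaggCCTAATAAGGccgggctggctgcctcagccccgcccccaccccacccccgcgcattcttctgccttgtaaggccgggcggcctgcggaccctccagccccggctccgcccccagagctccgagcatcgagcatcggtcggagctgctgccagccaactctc
Myl6: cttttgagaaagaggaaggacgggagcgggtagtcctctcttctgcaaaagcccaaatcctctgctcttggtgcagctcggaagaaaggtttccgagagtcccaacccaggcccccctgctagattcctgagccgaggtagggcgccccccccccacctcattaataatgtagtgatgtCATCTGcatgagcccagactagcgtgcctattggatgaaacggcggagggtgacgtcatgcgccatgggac
Mylpf and Myl1 each held 1 E-box with the same letters, CAGCTG, 51 to 46 and 224 to 219 bases before the start site. The same letters were also in the windows of Myl12a, which was not called and held 3 E-boxes, and of Myl2, which was at the detection limit. For Myl2 and Myl12b the bases after the RefSeq start were not found in a GENCODE transcript of the gene. The Myl2 windows end at 122092723 and 122093188, before the GENCODE gene start at 122100951. The windows of these genes are therefore uncertain as start regions. Myl4 held none of the searched letters, and Myl6 held 1 E-box (CATCTG), 71 to 66 bases before its start. The window of Myl6b held 1 E-box (CAACTG), and that of Myl12b held none. An E-box was present in 66.2% of the 32851 promoter windows of the same length, a CArG box in 1.47% and a MEF2 box in 2.92%. The MEF2 box was found in none of the 10 genes' windows, and a CArG box was found in those of Myl9, Myl3 and the second window of Myl6. A match is a description of the letters and not a bound site.

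Before differentiation the light chain pool of the siCtrl cells was almost wholly non-muscle. Levels are compared between genes as RPKM, that is CPM divided by the gene's summed annotated exon length in kilobases. That length joins the exons of all annotated transcripts (3187 bases for Myl6, 1062 for Mylpf) and can exceed that of the expressed transcript. The order between genes depends on this divisor. Myl6, the essential chain of non-muscle myosin, stood first in siCtrl at 0 h with 258 ± 33.5 RPKM (SD, n = 3), followed by the regulatory chains Myl12a (65.7 ± 14.1) and Myl9 (20.5 ± 14.5), and these ranges did not overlap. Myl12b (2.88 ± 0.209), Myl6b (2.35 ± 1.18) and Mylpf (1.84 ± 0.754) came next, and each overlapped its neighbour. The place of Myl12b is uncertain, because a read-through gene that shares exons with it and Myl12a held 52.2 to 63.8 CPM here. Myl1 (0.401 ± 0.311) and Myl4 (0.224 ± 0.0987) overlapped each other and stood below the rest. The vector cells at 0 h gave the same order for the first 6 genes, with Myl6 at 219 ± 19.7 RPKM (n = 2).

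Myl2 and Myl3, the regulatory and essential chains of slow skeletal muscle and cardiac ventricle, were at the detection limit throughout. Myl2 had 0 counts in 18 of 26 libraries and at most 3, and Myl3 had 0 counts in 21 and at most 6. Neither passed the filter on low counts in either experiment, so 8 of the 10 members were tested. A count of 0 allows up to 3 counts, which is 0.0442 to 0.21 CPM for these library sizes, counting error only. Of the 6 cardiac markers, Nppa had at most 4 counts in any library, Myh6, Nppb and Tnni3 at most 0.994, 3.45 and 3.71 CPM, Nkx2-5 0.628 to 30.9 CPM and Gata4 20.5 to 39.5 CPM.

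Differentiation of the control cells raised Mylpf, Myl1 and Myl4 by 21.2- to 135-fold and Myl6b by 3.9-fold, while Myl6 and Myl12a were not called. Mylpf, the regulatory chain of fast skeletal muscle (gene chr7:127208890-127214298, plus strand), had 1.03, 2.38 and 2.45 CPM in the siCtrl libraries at 0 h and 154, 297 and 372 CPM at 24 h. Myl1, which encodes the fast essential chains from separate start sites that gene counts do not separate (chr1:66924295-66945404, minus strand), had 0.11, 1.03 and 1.35 CPM at 0 h and 47.7, 89.2 and 108 CPM at 24 h. Myl4, the essential chain of embryonic muscle and the atrium (chr11:104550663-104595753, plus strand), had 0.659, 0.909 and 1.55 CPM at 0 h and 8.94, 25.7 and 28.1 CPM at 24 h. For all 3 genes the TRIzol library was the lowest at 24 h and still lay above every library at 0 h. The fitted log2 fold changes (24 h against 0 h) were 7.08 ± 0.33 (SE) for Mylpf, 6.59 ± 0.30 for Myl1 and 4.40 ± 0.45 for Myl4, with edgeR adjusted p-values of 1.61e-09, 2.02e-10 and 2.05e-06.

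Myl6b, an essential chain of slow muscle and non-muscle cells that lies next to Myl6 on chromosome 10 (chr10:128494157-128498685, minus strand), rose less. Its siCtrl libraries had 1.84, 5.34 and 5.86 CPM at 0 h and 12.6, 16.9 and 19 CPM at 24 h, with no overlap, and the log2 fold change was 1.96 ± 0.22 (adjusted p = 1.8e-06, edgeR). Its neighbour Myl6 (chr10:128490860-128494145) had 704 to 914 CPM at 0 h and 778 to 873 CPM at 24 h, with a fold change of 0.02 and a 95% confidence interval from -0.23 to 0.26. Myl12a (0.11, interval -0.10 to 0.33) was not called either. In all, 6 of the 8 tested members were called higher at an adjusted p under 0.01 and none lower, against 29.4% of all 15820 genes called in either direction. The median log2 fold change was 1.87 for the members and 0.03 for all genes.

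**Figure D1:**
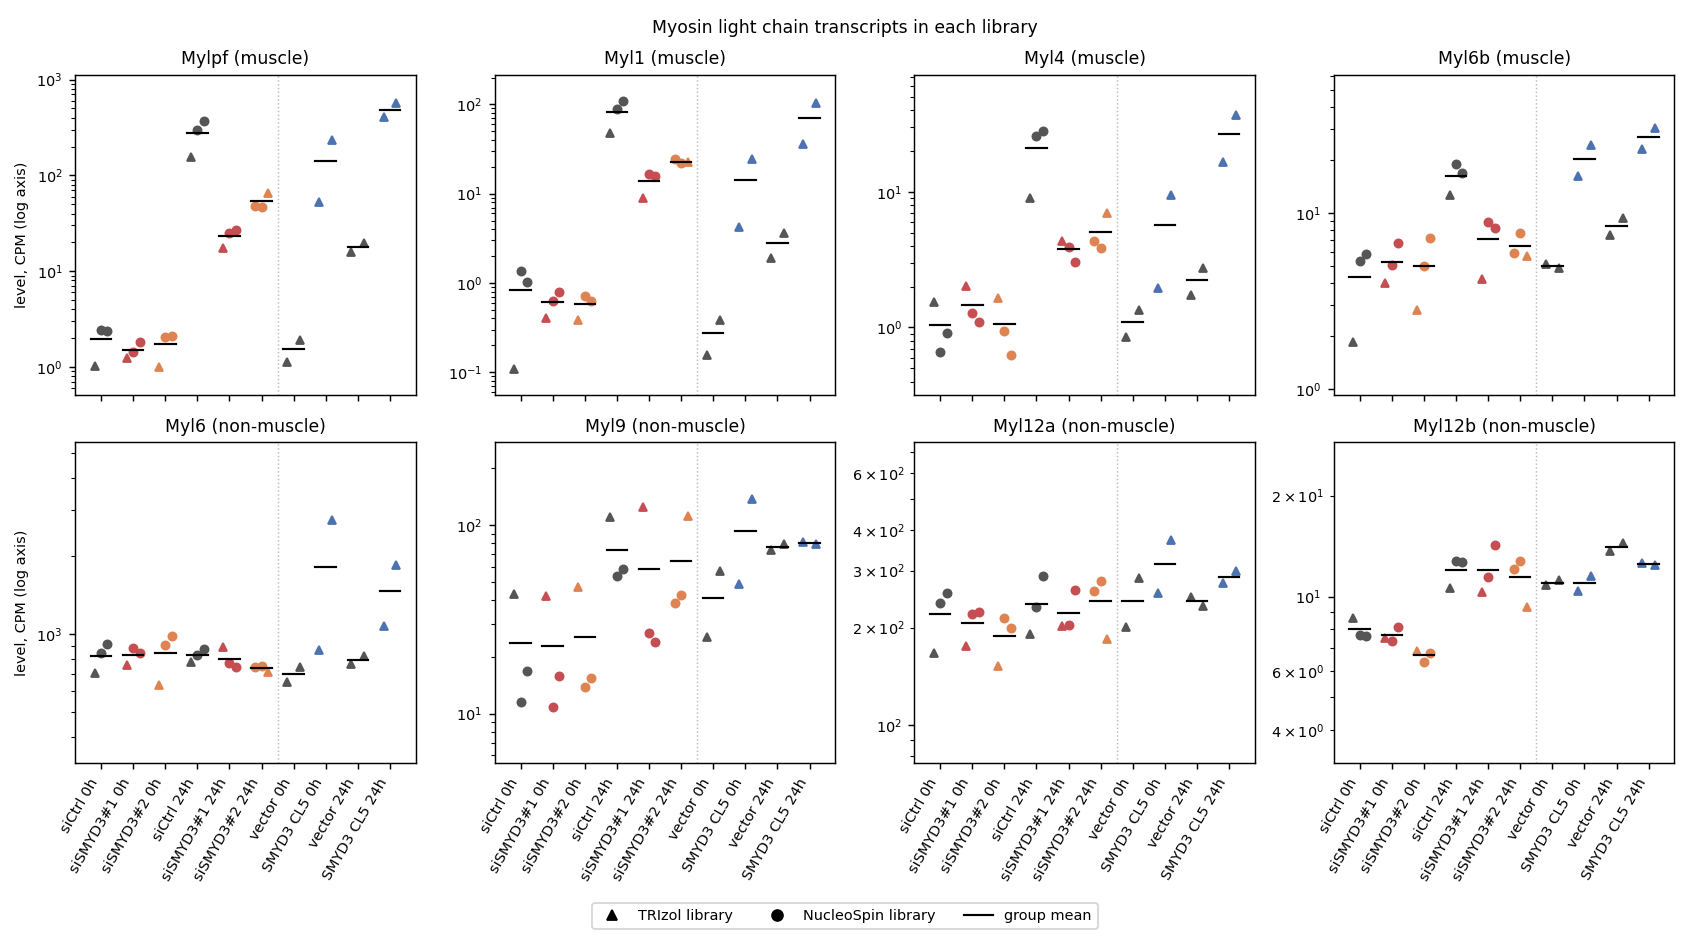
Level of each tested light chain gene in every library (CPM, log axis), by group, with triangles for TRIzol and circles for NucleoSpin libraries and a bar at the group mean. The dotted line parts the knockdown from the overexpression experiment. Mylpf runs from 1.01 to 565 CPM, whereas Myl6 stays between 632 and 983 CPM in the knockdown libraries.

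The non-muscle regulatory chain Myl9, which is also the light chain of smooth muscle (chr2:156775420-156781658, plus strand), was the non-muscle member that rose most. It had 11.5 and 16.9 CPM in the NucleoSpin and 43 CPM in the TRIzol library of siCtrl at 0 h, and 53.6, 58.2 and 110 CPM at 24 h. Each extraction rose on its own, and the fitted log2 fold change was 1.78 ± 0.21 (edgeR adjusted p = 8.54e-06); with the NucleoSpin libraries alone it was 1.94 (adjusted p = 1.44e-07). Without the extraction covariate the call was lost (1.64, adjusted p = 0.154), as it was under siSMYD3#2 (1.34, adjusted p = 0.296). Of the smooth muscle markers beside it, Acta2 (1.04), Smtn (0.52) and Lmod1 (1.66) rose, Tagln and Cnn1 were not called, and Myh11 had at most 10 counts in any library.

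Mylpf and Myl1 also rose from 0 h to 24 h under both SMYD3 siRNAs. Under siSMYD3#1, Mylpf had 1.25 to 1.84 CPM at 0 h and 17.3, 25.3 and 26.9 CPM at 24 h (log2 fold change 3.93 ± 0.33, edgeR adjusted p = 1.3e-06). Under siSMYD3#2 it had 1.01 to 2.11 CPM at 0 h and 46.7, 47.6 and 66.2 CPM at 24 h (5.02 ± 0.32, adjusted p = 1.88e-07). At 24 h the siSMYD3#1 range lay below the siSMYD3#2 range, which lay below the siCtrl range. Myl1 rose 22.6-fold under siSMYD3#1 and 40.8-fold under siSMYD3#2. Myl4 rose under siSMYD3#2 (2.27 ± 0.46, adjusted p = 0.00162) and was not called under siSMYD3#1 (1.36 ± 0.45, adjusted p = 0.0255). Myl6b was called under neither (0.39, interval -0.09 to 0.86, and 0.46, interval -0.02 to 0.94). Myl9 and Myl12b were called higher at 24 h in both. Over the tested members, 4 rose under siSMYD3#1 and 5 under siSMYD3#2, none fell, and 25.4% and 19% of all genes were called. Without the extraction covariate the siSMYD3#1 count was 2, with Myl9 (adjusted p = 0.257) and Myl12b (0.012) lost.

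At 24 h the 4 expressed muscle isoforms were lower under each siRNA than under siCtrl, and none of the 4 non-muscle isoforms was called. Both comparisons use the same siCtrl libraries. Mylpf was 11.6-fold lower under siSMYD3#1 (log2 fold change -3.53 ± 0.27, edgeR adjusted p = 1.88e-06) and 4.72-fold lower under siSMYD3#2 (-2.24 ± 0.25, adjusted p = 0.000152). Myl1 had 8.95, 15.8 and 16.4 CPM under siSMYD3#1 and 21.8, 22.5 and 24.3 CPM under siSMYD3#2, all below the lowest siCtrl library at 47.7 CPM, with fold changes of -2.55 and -1.72. Myl4 had 3.04 to 4.35 CPM and 3.87 to 6.98 CPM, also below the lowest siCtrl library at 8.94 CPM (-2.51 and -2.10). Myl6b had 4.2, 8.14 and 8.88 CPM and 5.72, 5.94 and 7.67 CPM against 12.6 CPM or more in siCtrl (-1.24 and -1.30). The 4 called members of 8 tested stood against 5.85% of all genes for siSMYD3#1 and 3.7% for siSMYD3#2. The median member log2 fold changes were -0.95 and -0.81, and those over all genes 0.00. Under siSMYD3#2 the Myl4 and Myl6b calls were lost when either NucleoSpin library of that group was left out, and the count fell to 2 (adjusted p between 0.0129 and 0.0324). The Myl4 call was also lost without either NucleoSpin library of siCtrl (adjusted p of 0.0172 and 0.0143). Without the extraction covariate the counts were 2 for siSMYD3#1 and 1 for siSMYD3#2.

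The non-muscle chains were also compared with siCtrl at 24 h. Myl6 differed from siCtrl by -0.04 on the log2 scale under siSMYD3#1 (95% interval -0.28 to 0.20) and by -0.17 under siSMYD3#2 (-0.41 to 0.07). Its siSMYD3#2 libraries (712 to 753 CPM) also lay below those of siCtrl (778 to 873 CPM), as those of the muscle isoforms did. The share of all genes whose groups separated in this way is not given here. Myl12a differed by -0.08 (-0.30 to 0.14) and 0.02 (-0.20 to 0.24), and Myl12b by -0.02 (-0.30 to 0.27) and -0.08 (-0.37 to 0.21). Myl9 was -0.66 under siSMYD3#1 (-1.11 to -0.21, edgeR adjusted p = 0.0551), and the TRIzol and NucleoSpin libraries went different ways. It had 26.8 and 24.1 CPM in the NucleoSpin libraries against 53.6 and 58.2 CPM in those of siCtrl. In the TRIzol libraries, 1 per group, it had 124 against 110 CPM. Extraction coincided with the passage, and a difference of the siRNA effect between them was not tested. With the NucleoSpin libraries alone the Myl9 difference was -1.12 (adjusted p = 0.000136). For siSMYD3#2 it was -0.32 in all libraries (adjusted p = 0.403) and -0.46 in the NucleoSpin libraries (adjusted p = 0.0653).

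**Figure D2:**
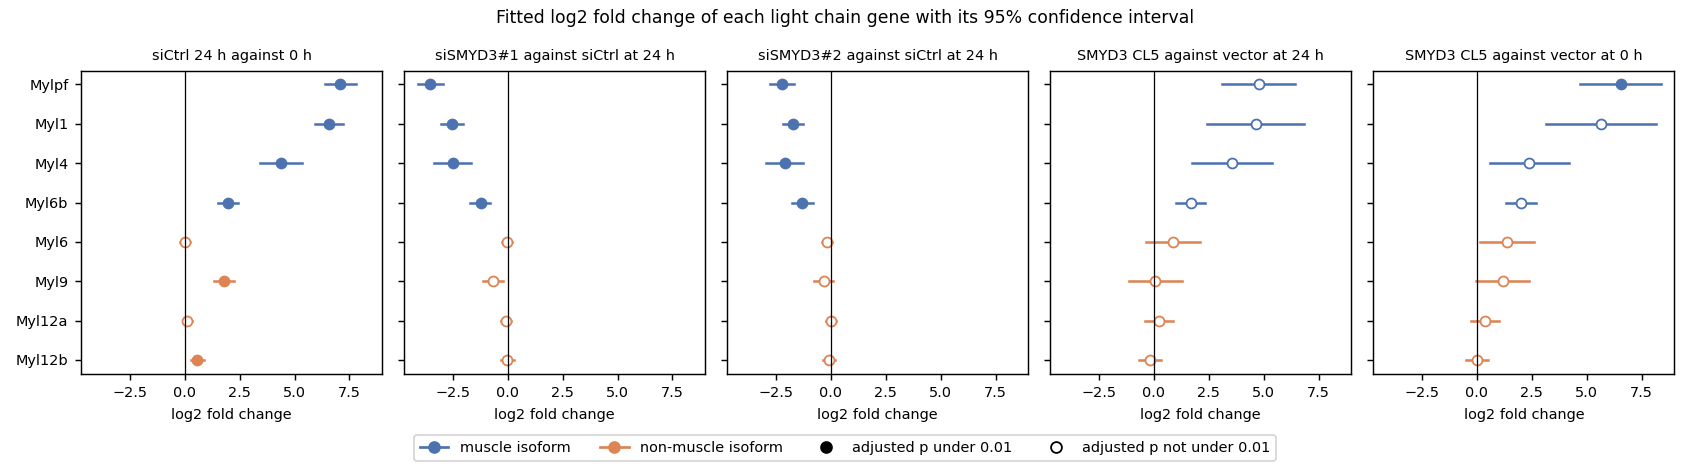
Fitted log2 fold change (points) of the 8 tested members in 5 comparisons, with 95% confidence intervals (lines). Filled points passed an edgeR adjusted p under 0.01. Blue stands for muscle and orange for non-muscle isoforms; the 4 muscle isoforms lie below 0 under both siRNAs and above 0 in SMYD3 CL5.

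Before differentiation the siRNAs gave no call among the members. At 0 h the Mylpf difference from siCtrl was -0.38 under siSMYD3#1 (95% interval -1.22 to 0.45) and -0.17 under siSMYD3#2 (-0.96 to 0.61), at levels of 1.01 to 2.45 CPM in all 9 libraries. In edgeR 0 of 8 members were called in either comparison (1.43% and 0.531% of all genes), and by DESeq2 0 as well; at an unadjusted p under 0.05 the members counted 0 and 1. The difference between the effect at 24 h and the effect at 0 h was itself tested, again with siCtrl libraries shared by both siRNAs. For Mylpf under siSMYD3#1 it was -3.15 ± 0.48 (adjusted p = 0.00699, edgeR), the single call among the members in a comparison that called 0.215% of all genes. That call had an adjusted p of 0.0108 with the study's replicate number as a block, and it was lost when any 1 of 11 of the 12 libraries was left out, with the value between -2.93 and -3.27; without the TRIzol library of siCtrl at 24 h it was -3.35 (adjusted p = 0.00103). For siSMYD3#2 no member was called (0.019% of all genes): Mylpf was -2.07 ± 0.45 (adjusted p = 0.0693) and Myl6b -1.50 ± 0.32 (adjusted p = 0.0562). By DESeq2 the 2 comparisons called 4 and 3 members.

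The 2 siRNAs differed from each other at 24 h in Mylpf, which was 2.45-fold lower under siSMYD3#1 (-1.29 ± 0.25, edgeR adjusted p = 0.00613). It was the single called member of 8, against 3.36% of all genes, and the call was lost when any 1 of the 3 siSMYD3#1 libraries was left out (adjusted p between 0.0248 and 0.0341). Myl1 differed in the same direction (-0.83 ± 0.23, adjusted p = 0.0341). For Myl4 (-0.41, interval -1.28 to 0.46) and Myl6b (0.05, interval -0.42 to 0.53) no difference passed the test. Smyd3 was at 15.1 to 19.3 CPM under siSMYD3#1 and 5.37 to 9.65 CPM under siSMYD3#2 in the same libraries.

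The share of muscle isoforms in the summed light chain CPM gives 1 number per library. In siCtrl it was 0.488 to 0.881% at 0 h and 17, 27.6 and 29.8% at 24 h. It reached 2.77 to 5.13% under siSMYD3#1 and 6.85 to 9.05% under siSMYD3#2 at 24 h, with no overlap between any of the 3 treatments. With Myl6b counted as non-muscle, the siCtrl share was 0.29 to 0.401% at 0 h and 16.1 to 28.9% at 24 h. CPM favours long transcripts, and the share depended on the measure. With Myl6b again among the muscle isoforms, levels per summed exon length (RPKM) gave 1.34 ± 0.514% (SD, n = 3) in siCtrl at 0 h. At 24 h they gave 42.7 ± 10.4% in siCtrl, 8.46 ± 2.96% under siSMYD3#1 and 15.4 ± 1.52% under siSMYD3#2, and the 3 treatments again did not overlap. The summed exon length is not that of the expressed transcript, so neither share is free of a length effect. No non-muscle isoform was called lower in siCtrl at 24 h against 0 h, so the higher share came with higher muscle isoforms. At 24 h in siCtrl the muscle share was 44.6 ± 9.93% (SD, n = 3) of the regulatory and 12.3 ± 3.63% of the essential chain CPM. In CPM Mylpf (mean 274) lay below Myl6 (mean 827) at 24 h in siCtrl. Per summed exon length Mylpf reached 258 ± 104 RPKM there, and its range overlapped that of Myl6 (260 ± 14.9 RPKM). Myl12a (70.7 ± 14.6), Myl9 (63.5 ± 26.8) and Myl1 (39.3 ± 14.8) followed, each overlapping the next.

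**Figure D3:**
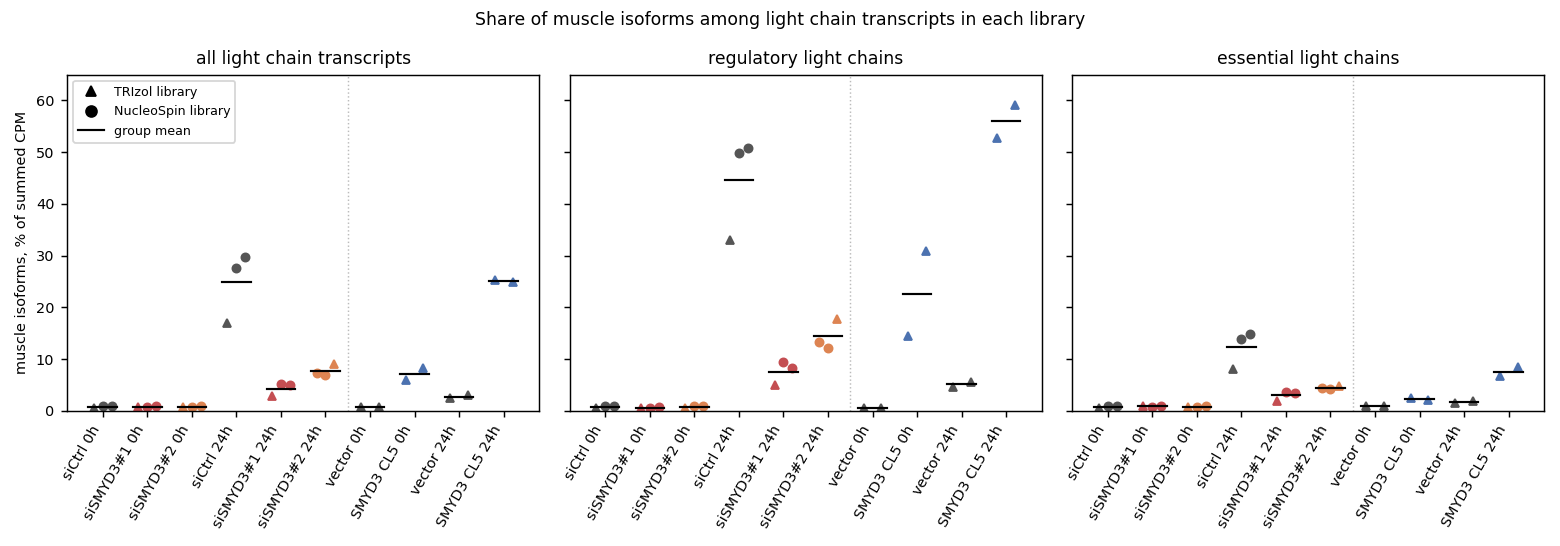
Muscle isoforms as a percentage of the summed CPM of all, of the regulatory and of the essential light chains, in each library (triangles TRIzol, circles NucleoSpin, bar at the group mean). At 24 h the siCtrl libraries lie between 17 and 29.8% of all light chains and the SMYD3 CL5 libraries at 24.8 and 25.2%.

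Levels also differed between the TRIzol (passage 11) and NucleoSpin (passage 14) libraries, a comparison chosen after seeing the data. Myl9 was higher in the TRIzol library than in both NucleoSpin libraries of all 6 groups, by 1.62 ± 0.12 on the log2 scale, or 3.07-fold (edgeR adjusted p = 2.28e-08). Myl6b (-0.79) and Myl12a (-0.42) were lower in TRIzol in all 6 groups and Myl1 (-0.76) in 5 of 6, all called. That made 1 member higher and 3 lower of 8, a share close to the 51.3% of all genes called, so the count is not a result about the members. Acta2, Tagln, Cnn1 and Lmod1 of the smooth muscle markers were higher in TRIzol by 1.47, 1.49, 1.62 and 2.85, and Smtn was lower (-0.26) on the log2 scale. Of the 4 myoblast markers 3 were lower in TRIzol, Des by -3.52, Myod1 by -1.82 and Cdh15 by -0.93, and Myf5 was not called (-0.21). The part of the extraction or of the passage in these values was not tested. For Mylpf the TRIzol library was the lowest of its group in 5 groups and the highest in siSMYD3#2 at 24 h.

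**Figure D4:**
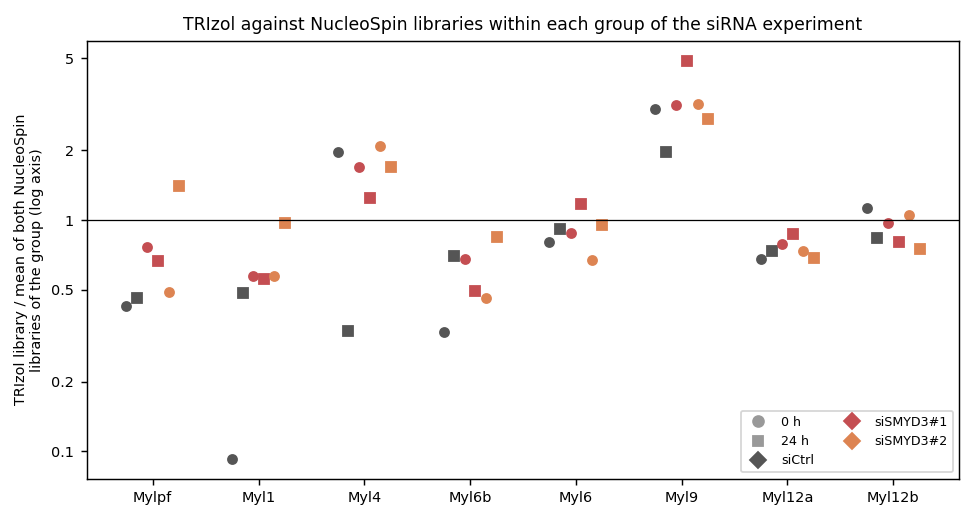
Level in the TRIzol library divided by the mean of both NucleoSpin libraries of the same group (log axis), for the 8 tested members; circles are 0 h and squares 24 h, coloured by siRNA. All 6 Myl9 points lie above 1 and all 6 Myl6b and Myl12a points below it.

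Myl12a and Myl12b, a pair of nearly identical regulatory chains that lie side by side on chromosome 17, are uncertain as single genes. The annotation holds a further gene ID with the symbol Myl12b, a read-through gene (chr17:70974119-71002208, minus strand) whose 1201 exon bases all fall in exons of Myl12a (462) or Myl12b (739). It had 543 to 3724 counts per library, and 31.3 to 73.9 CPM in the knockdown libraries, more than Myl12b's own 6.36 to 14.2 CPM. The Myl12b rise in siCtrl (0.58 ± 0.14, edgeR adjusted p = 0.00211) became 0.18 ± 0.21 (adjusted p = 0.525) when both IDs were summed. The same sum gave 0.15 (adjusted p = 0.604) under siSMYD3#1 and 0.03 (adjusted p = 0.932) under siSMYD3#2, and no Myl12b call remained in these 3 comparisons. Myl12a, Myl12b and the read-through gene together changed by 0.13 ± 0.11 in siCtrl (adjusted p = 0.358). The Myl12a exons also share 207 bases with Myom1, a gene of the sarcomere's M-band, on the opposite strand.

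In the overexpression experiment the muscle isoforms stood higher in SMYD3 CL5 than in vector cells at both times, with most of them short of the test. At 0 h Mylpf had 1.13 and 1.92 CPM in vector cells and 52.8 and 233 CPM in SMYD3 CL5. The log2 fold change was 6.54 ± 0.79 (edgeR adjusted p = 0.00691), the single call among 8 tested members, against 1.07% of the 17835 genes tested. Myl1 had 0.157 and 0.389 against 4.24 and 24.2 CPM (5.64 ± 1.08, adjusted p = 0.0351), and Myl6b 4.84 and 5.12 against 16.1 and 24.1 CPM (2.01 ± 0.29, adjusted p = 0.0131). Myl4 had 0.848 and 1.34 against 1.94 and 9.53 CPM (edgeR adjusted p = 0.16). Myl6 had 653 and 742 CPM in vector cells and 868 and 2737 CPM in SMYD3 CL5, and Myl9 had 25.5 and 57 against 48.6 and 137 CPM. The higher value was in each case from the SMYD3 CL5 library that also held 398 CPM of the differentiating muscle markers. Leaving out the other SMYD3 CL5 library (Myl1, Myl4, Myl6b, Myl6 and Myl9 were then called beside Mylpf) raised the count of called members from 1 to 6, and leaving out this one gave 2. Leaving out either vector library gave 0, with an adjusted p for Mylpf of 0.0821 or 0.0697.

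At 24 h Mylpf had 16 and 19.6 CPM in vector cells and 409 and 565 CPM in SMYD3 CL5 (4.77 ± 0.71, edgeR adjusted p = 0.0149), Myl1 1.88 and 3.67 against 36.4 and 103 CPM (4.64 ± 0.94, adjusted p = 0.0461). Myl6b (1.67 ± 0.29, adjusted p = 0.0262) and Myl4 (3.55 ± 0.78, adjusted p = 0.0574) stood higher as well. No member passed an adjusted p under 0.01 in edgeR, where 0.964% of all genes did. At an unadjusted p under 0.05 4 members did, and DESeq2 called 4 (Myl1, Myl4, Mylpf and Myl6b). Myl9 (0.06, 95% interval -1.14 to 1.27), Myl12a (0.25, interval -0.40 to 0.89) and Myl12b (-0.17, interval -0.66 to 0.32) had intervals that span 0, and so did Myl6 (0.87, interval -0.34 to 2.09). The muscle share of the light chain CPM was 2.4 and 2.98% in vector cells and 24.8 and 25.2% in SMYD3 CL5. Per exon length it was 5.56 ± 0.703% (SD, n = 2) and 45.5 ± 0.671%, and in SMYD3 CL5 at 0 h 15.9 ± 3.55%. In siCtrl of the knockdown experiment at 24 h the CPM share was 17 to 29.8% and Mylpf had 154 to 372 CPM. Vector cells thus stood below siCtrl, and SMYD3 CL5 had a share within the siCtrl range, though its Mylpf lay above that range. The muscle share of the regulatory chains was 52.7 and 59.2% in SMYD3 CL5, above the 33.1 to 50.8% of siCtrl. That of the essential chains was 6.63 and 8.46%, at the low end of siCtrl (8.17 to 14.9%) or below it. The 2 experiments were not tested against each other. Of the 5 cardiac markers tested, Nkx2-5 was called higher in SMYD3 CL5 at 0 h (2.86, edgeR adjusted p = 0.00964) and not at 24 h (2.34, adjusted p = 0.0191). The median over these 5 was 2.86 at 0 h and 2.34 at 24 h, and the summed level of all 6 was 30.5 to 34.9 CPM in vector cells and 37.4 to 58.8 CPM in SMYD3 CL5; the part of these genes in the light chain values was not tested. Per summed exon length, Mylpf (459 ± 104 RPKM, SD, n = 2) and Myl6 (457 ± 171) overlapped at the head of the SMYD3 CL5 order at 24 h. In CPM Mylpf (409 and 565) lay below Myl6 (1069 and 1842) in these libraries.

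From 0 h to 24 h no gene at all was called by edgeR in vector cells (0%) or in SMYD3 CL5 (0%), with 1256 and 1137 genes at an unadjusted p under 0.05 and 119 and 109 called by DESeq2. Among the members, Mylpf had 3.53 ± 0.70 (adjusted p = 0.365) and Myl1 3.29 ± 1.03 (adjusted p = 0.537) in vector cells, and Myl1 2.29 ± 0.84 (adjusted p = 0.683), Myl4 2.20 ± 0.73 and Mylpf 1.77 ± 0.62 in SMYD3 CL5. At an unadjusted p under 0.05 the members counted 3 in vector cells and 3 in SMYD3 CL5, and DESeq2 called 2 (Myl1 and Mylpf) and 0. The Mylpf libraries at 24 h lay above those at 0 h in both lines. The SMYD3 CL5 effect gave no call between the times for any member (0% of all genes called, 312 at an unadjusted p under 0.05 and 2 called by DESeq2; 0 of the 8 members). For Mylpf the difference was -1.76, with a 95% interval from -3.84 to 0.32.

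The partners of the light chains are given from a list of heavy chains, kinases and genes of the myosin phosphatase and its regulation. Of 10 muscle heavy chain genes, 4 passed the filter in the knockdown experiment, and in siCtrl 3 rose from 0 h to 24 h: Myh3, the embryonic heavy chain (log2 fold change 9.57 ± 0.53, edgeR adjusted p = 2.29e-08), Myh7, the slow one (4.39), and Myh7b (2.82), against 29.4% of all genes called. Myh3 was also the 1 heavy chain of the 4 called lower at 24 h under siSMYD3#1 (-4.00) and under siSMYD3#2 (-2.41). These comparisons called 5.85% and 3.7% of all genes. The non-muscle heavy chains Myh9 and Myh10 changed by -0.03 each in siCtrl, with no call. They were the 2 that passed the filter of 4 on the list of non-muscle and smooth muscle heavy chains. In SMYD3 CL5 against vector, Myh7 was called at 24 h (7.97 ± 0.58, adjusted p = 0.00103) and at 0 h (5.58 ± 0.51), 1 of 7 tested at each time. The share of all genes called was 0.964% at 24 h and 1.07% at 0 h.

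Of the 7 kinases that act on regulatory light chains, 6 were tested in the knockdown experiment and 2 rose in siCtrl: Mylk, the smooth and non-muscle light chain kinase (2.12 ± 0.22, edgeR adjusted p = 6.32e-07), and Mylk2, the skeletal one (1.05 ± 0.21, adjusted p = 0.000441). These 2 of 6 stand near the 29.4% of all genes called in that comparison, and so say nothing particular of the kinases. Mylk2 was lower under siSMYD3#1 at 24 h (-1.21 ± 0.21, adjusted p = 0.000824). Under siSMYD3#2 it was -0.66 (adjusted p = 0.0536). Mylk was called under neither (-0.22 and -0.44). Of 6 myosin phosphatase genes 1 rose in siCtrl, Ppp1r12b, a targeting subunit (0.68 ± 0.15, adjusted p = 0.00135), a share below that of all genes. Mylip, a ubiquitin ligase named for its binding to the myosin regulatory light chain, rose as well (1.49 ± 0.32, adjusted p = 0.00164), and its difference from siCtrl at 24 h was -0.01 under each siRNA. Of the other light chain genes, Myl7 had at most 1 count in a knockdown or overexpression library, and Myl10 was tested only with the overexpression libraries (4.82 ± 1.23 at 24 h, adjusted p = 0.0961).

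Over the 18 knockdown libraries, the genes whose log2 CPM followed each member most closely were sought among those with a mean of at least 100 counts, with Pearson's r as a description over libraries that share treatments and extractions. The closest to Mylpf were Ckm (r = 0.995), the muscle creatine kinase, and Myh3 (0.994), and to Myl1 they were Tnni2, the fast troponin I (0.988), and Mylpf (0.988). Myl4 was followed most closely by Accs (0.960) and Iffo1 (0.957), and Myl6b by Neurl1a (0.930) and Btbd1 (0.924). For Myl9 the closest were Parm1 (0.972) and Mxd4 (0.968), and for Myl6, Gm5526 (0.902) and Zfp513 (0.875), of which Gm5526 is annotated as a processed pseudogene. Myl12a was closest to Eif3h (0.930), a subunit of a translation initiation factor, and Rnf14 (0.917), and Myl12b to Cyb5d2 (0.951) and Rmnd5a (0.946).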

How the data were processed

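The authors prepared stranded poly(A) libraries, aligned paired-end reads with HISAT2 (2.1.0) to GRCm38 and deposited raw counts per gene from featureCounts (Subread 1.6.3), with no normalization; the strand setting and the treatment of multi-mapping reads are not given in the sources used here. Groups followed the labels. Members and lists were chosen with earlier results of these data known. The rule for named genes was every member, Smyd3, and the myosin heavy chains, kinases, myosin phosphatase genes and Mylip of the lists. For each tested member it added the 2 genes with the highest Pearson r over the 18 knockdown libraries. Marker genes of cell types are named beside these.

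Counts were filtered (filterByExpr), TMM-scaled and tested with edgeR 4.0.16 (quasi-likelihood F test, R 4.3.3), separately for 18 knockdown libraries (6 groups plus extraction) and 8 overexpression libraries (4 groups). P-values were adjusted (Benjamini-Hochberg) over 15820 and 17835 genes, and under 0.01 was called. The study's methods call the libraries biological replicates, and TRIzol and NucleoSpin libraries come from passages 11 and 14; how replicates of the same passage were cultured is not given in the sources used here. Scripts were tested on simulated data. Of 55341 gene IDs, 54495 matched GENCODE M21. Alternatives were DESeq2 1.42.0, RLE scaling, no filter, a threshold of 0.05, no extraction covariate, NucleoSpin libraries only, a replicate block, all 26 libraries in 1 fit and each library left out; the sums with the read-through gene and the TRIzol contrast were chosen after seeing the data. Intervals and floors for single counts cover counting error only.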

Additional observations from a re-analysis of the deposited data

Results flagged for a closer look

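The effect of siSMYD3#1 on Mylpf differed between the times by a test of the difference itself. It was -0.38 on the log2 scale at 0 h and -3.53 at 24 h, a difference of -3.15 ± 0.48 (edgeR adjusted p = 0.00699). The call was lost with the replicate block (adjusted p = 0.0108), without the extraction covariate (0.0379), with all 26 libraries in 1 fit (0.0458) and when any 1 of 11 of the 12 libraries was left out (0.0107 to 0.0436). The value stayed between -2.93 and -3.35 when single libraries were left out.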

How the results depend on the processing

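No called value of a member changed sign under any alternative run. The numbers of members called that moved by over 1.5 times are given here; the cause was not tested. Without the extraction covariate, 2 were called for siSMYD3#1 from 0 h to 24 h, 2 for siSMYD3#1 and 1 for siSMYD3#2 against siCtrl at 24 h, and 0 between the siRNAs and for the siSMYD3#1 difference between times. With all 26 libraries in 1 fit, 2 were called for siSMYD3#2 against siCtrl at 24 h, 0 between the siRNAs, 0 for the siSMYD3#1 difference, 1 in vector cells from 0 h to 24 h, and 4 (24 h) and 5 (0 h) for SMYD3 CL5 against vector. At an adjusted p under 0.05 the counts were 2 between the siRNAs and 3 each for the siSMYD3#1 difference and for SMYD3 CL5 at 24 h and 0 h. DESeq2 called 4 and 3 for the siSMYD3#1 and siSMYD3#2 differences, 2 in vector cells, and 4 for SMYD3 CL5 at each time. With no filter on low counts it was 2 between the siRNAs, 4 for each siRNA difference, 2 in vector cells, 3 in SMYD3 CL5 from 0 h to 24 h, and 4 (24 h) and 6 (0 h) for SMYD3 CL5 against vector. NucleoSpin libraries alone gave 3 for each siRNA difference.

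With the study's replicate number as a block, 0 members were called for the siSMYD3#1 difference and 3 for SMYD3 CL5 against vector at each time. Same-numbered knockdown libraries correlated by 0.366 to 0.851, but within NucleoSpin by -0.041 to 0.177, and overexpression libraries by -0.097 to 0.483; the numbers are not in the labels.

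With each library left out in turn, counts ran from 5 to 6 (siCtrl), 3 to 4 (siSMYD3#1) and 4 to 5 (siSMYD3#2) for 24 h against 0 h, 4 to 5 and 2 to 4 for siSMYD3#1 and siSMYD3#2 against siCtrl at 24 h, 0 to 1 between the siRNAs, 0 to 2 and 0 to 1 for their differences between times, and 0 to 6 for SMYD3 CL5 against vector at 0 h. Where this left 1 library in a group, that library was assumed to vary like the other groups.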
